A study of Mus musculus with 2 samples.

Results

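The genes described here encode the proteins of the cytosolic ribosome in 4T1, a cell line from a mouse mammary carcinoma. They were chosen by name, as protein-coding genes whose GENCODE M21 symbol starts with Rpl or Rps followed by a digit or p, together with Rpsa and Fau and without S6 kinases, pseudogene symbols and antisense symbols. The rule took 87 of the 51912 genes with Ensembl identifiers in the deposited table. Of these, 78 are canonical ribosomal proteins (46 of the large subunit and 32 of the small subunit), 8 are paralogs such as Rpl22l1, and 1, Rps19bp1, is named for binding Rps19 and is no ribosomal protein. RNA was sequenced from 4T1 cells co-cultured for 3 days with M2 macrophages, which sat in the upper chamber of a transwell while the 4T1 cells sat in the lower one, and from control 4T1 cells. The labels give neither the source of the macrophages nor whether control wells held an empty chamber. Each group had 1 library, so every value is a single measurement, no test between groups was possible, and differences compare these libraries only.

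The cytosolic ribosome consists of a small subunit, which decodes mRNA, and a large subunit, which joins amino acids. Ribosomal RNA forms the core of each subunit, and most proteins are present once per ribosome. Ribosomal protein mRNAs are among the most abundant of growing cells. They begin with a 5′ terminal oligopyrimidine (TOP) tract, through which mTORC1 and the RNA-binding protein Larp1 control their translation together.

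Values are TPM, a length-normalised abundance scaled by the authors to a total of 1000000 per library, so sequencing depth is unknown and no counting error can be given. In the title of the co-cultured sample the cells are written 4T2, while its treatment label and table column have 4T1, which was followed. Genes whose mean over both libraries was 1 TPM or more were counted as detected, which gave 11258 genes. Of 20 macrophage and myeloid markers only Cd68, Cd14 and Cd74 were detected, with a sum over these 3 of 47.0 TPM in co-culture and 76.5 TPM in the control. The defining markers Adgre1, Tyrobp, Fcer1g, Itgam and Ptprc were listed at 0 in both libraries. Aif1, Ctss, C1qb, Lyz2 and Mpeg1 had 0.27, 0.08, 0.06, 0.04 and 0.03 TPM in co-culture and 0 in the control. Mrc1 had 0.08 TPM in co-culture and 0.05 TPM in the control. Csf1r (0.01 TPM in co-culture and 0.03 TPM in the control) and Laptm5 (0 in co-culture and 0.04 TPM in the control) went the other way. Whether the differences in these markers bear on the results was not tested. Of 12 epithelial markers 7 were detected, among them Krt8, which had 630 TPM in co-culture and 548 TPM in the control, while Epcam was listed at 0 in both and Cdh1 had 0.01 TPM in co-culture and 0.04 TPM in the control.

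Nearly all cytosolic ribosomal protein genes had lower values in co-culture, by a similar small amount. Of the 87 genes, 84 were detected, and 80 of these had a log2 ratio of co-culture over control below 0 (78 to 84 under other scalings of the libraries, 65 with trends on length and GC removed). Among all detected genes 35.4% had lower values in co-culture (33.4% to 53.0% under the other scalings). Among genes whose mean was 100 TPM or more, a class closer to the ribosomal proteins in abundance, 52.5% had lower values. That class includes members and pseudogene copies of them. Among the 1019 genes of the class that are neither, 47.7% had lower values and the median log2 ratio was 0.03. The ratio was taken as log2((co-culture TPM + 1)/(control TPM + 1)). Its median was -0.25 over the 84 detected genes and 0.17 over all detected genes. The difference between these medians was -0.41, and it lay between -0.43 and -0.41 under the other scalings of the libraries tried. With trends on length and GC removed the members' median was -0.0819 and the difference -0.25, and under TMM scaling the members' median was -0.46. In bulk RNA a smaller share of ribosomal protein mRNA per cell and a change in the mix of cells cannot be told apart.

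The 78 canonical genes lay close together. Their log2 ratios had a standard deviation of 0.12 across genes, against 0.62 across all detected genes and 0.52 across 1019 genes of 100 TPM or more that were neither members nor pseudogene copies of them. Of the 78 genes, 71 lay within 0.2 of their own median. No canonical gene was 2-fold different in either direction. The 2-fold rule (a log2 ratio of -1 or below, or of 1 or above) took 2.14% of all detected genes as lower and 4.95% as higher. Of the 84 detected genes it took 1, the paralog Rpl22l1, as lower and none as higher.

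Summed over the own rows of the 87 genes, ribosomal protein mRNA made up 16.7% of the co-culture library and 20.2% of the control library. With their pseudogene copies included the shares were 23.0% in co-culture and 27.6% in the control. The 46 canonical genes of the large subunit contributed 9.75% of TPM in co-culture and 11.8% in the control. The 32 of the small subunit contributed 6.88% in co-culture and 8.18% in the control. Because TPM is a closed total, a lower share of these genes raises the share of others. The 884 assembled loci that carry no Ensembl identifier held 6.47% of TPM in co-culture and 4.38% in the control. With the total taken over Ensembl genes alone, the log2 ratio of the ribosomal protein shares was -0.24, against -0.27 with all loci.

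**Figure D1:**
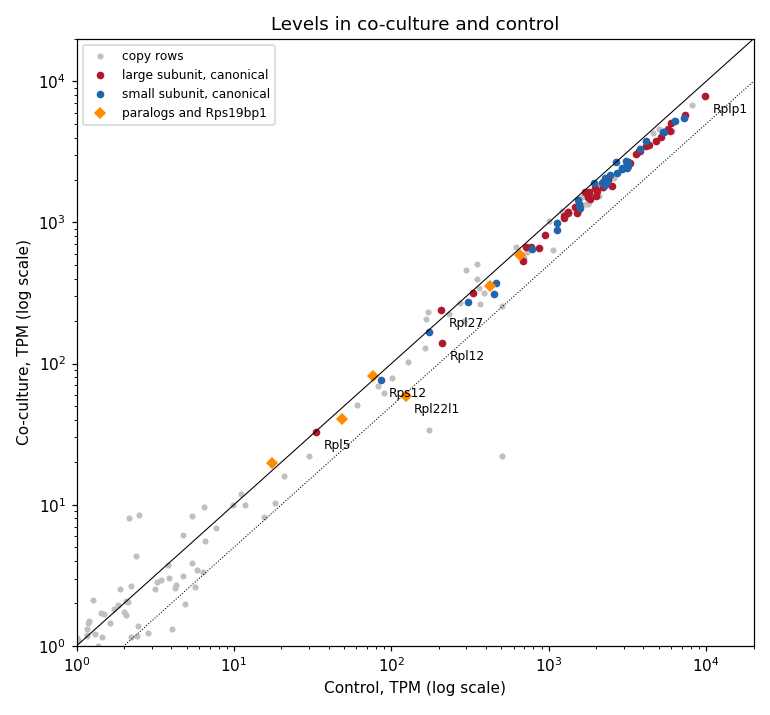
TPM in co-culture (vertical axis) against control (horizontal axis), both on log scales, 1 point per gene, for the canonical proteins of each subunit, the paralogs with Rps19bp1, and the copy rows (pseudogene and retrogene rows that align to a ribosomal protein transcript) that fall inside the axes. The solid line marks equal values and the dotted line a 2-fold lower co-culture value, and most canonical genes lie just below the solid line, with only Rpl22l1 among the coloured points reaching the dotted one.

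The subunits hardly differed from each other. All but 1 of the 46 large-subunit genes had lower values in co-culture, with a median log2 ratio of -0.24 and a standard deviation of 0.13. All but 1 of the 32 small-subunit genes had lower values, with a median of -0.26 and a standard deviation of 0.11. The difference of these medians, large minus small, was 0.02, well inside the spread of either subunit, and with means it was -0.01. Proteins conserved in all domains of life had a median of -0.23 in the large subunit (18 genes) and -0.26 in the small subunit (15 genes). The proteins without that conservation had medians of -0.25 (28 genes) and -0.26 (17 genes).

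Levels spanned a wide range in either library on the genes' own rows and kept nearly the same order. Large-subunit genes ran from 32.6 TPM to 7881 TPM with a median of 1640 TPM in co-culture, and from 33.1 TPM to 9815 TPM with a median of 1909 TPM in the control. Small-subunit genes ran from 76.3 TPM to 5489 TPM with a median of 2112 TPM in co-culture, and from 86.6 TPM to 7192 TPM with a median of 2393 TPM in the control. Summed with pseudogene copies of the same mRNA, the large-subunit genes ran from 672 TPM to 7881 TPM in co-culture and from 814 TPM to 9815 TPM in the control, with medians of 2611 TPM in co-culture and 3133 TPM in the control. The small-subunit genes summed in this way ran from 390 TPM to 7325 TPM in co-culture and from 405 TPM to 8695 TPM in the control, with medians of 2537 TPM in co-culture and 3141 TPM in the control. The range was thus narrower, and the medians of the subunits lay close together. Across the 78 genes the log2 levels in the 2 libraries had r = 0.997, a description across genes that share the same libraries. The most abundant was Rplp1, on chromosome 9 of GRCm38 from 61913284 to 61914542, with 7881 TPM in co-culture and 9815 TPM in the control. Also abundant in the large subunit was Rpl41, which encodes the smallest of these proteins, with 5069 TPM in co-culture and 6010 TPM in the control. In the small subunit Rps27 (5489 TPM in co-culture and 7192 TPM in the control), Rpsa (5204 TPM in co-culture and 6316 TPM in the control) and Rps15 (4395 TPM in co-culture and 5379 TPM in the control) were the most abundant on their own rows.

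Members that were abundant on their own rows lay slightly lower than the others. For 23 of the 78 canonical genes the control TPM lay mostly in pseudogene copies, so a low own row need not mean low abundance. Across the 78 genes the log2 ratio correlated with the log2 mean TPM of the own row at r = -0.28, with coding length at r = -0.03 and with GC content at r = -0.18. No correlation with copies included was computed. The rank correlations (Spearman's rho) were -0.31 with mean TPM, -0.03 with coding length and -0.32 with GC content. The 10 canonical genes most abundant on their own rows summed to 5.12% of TPM in co-culture and 6.42% in the control. Without these 10 genes 70 of 74 detected members had lower values and the median was -0.23.

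**Figure D2:**
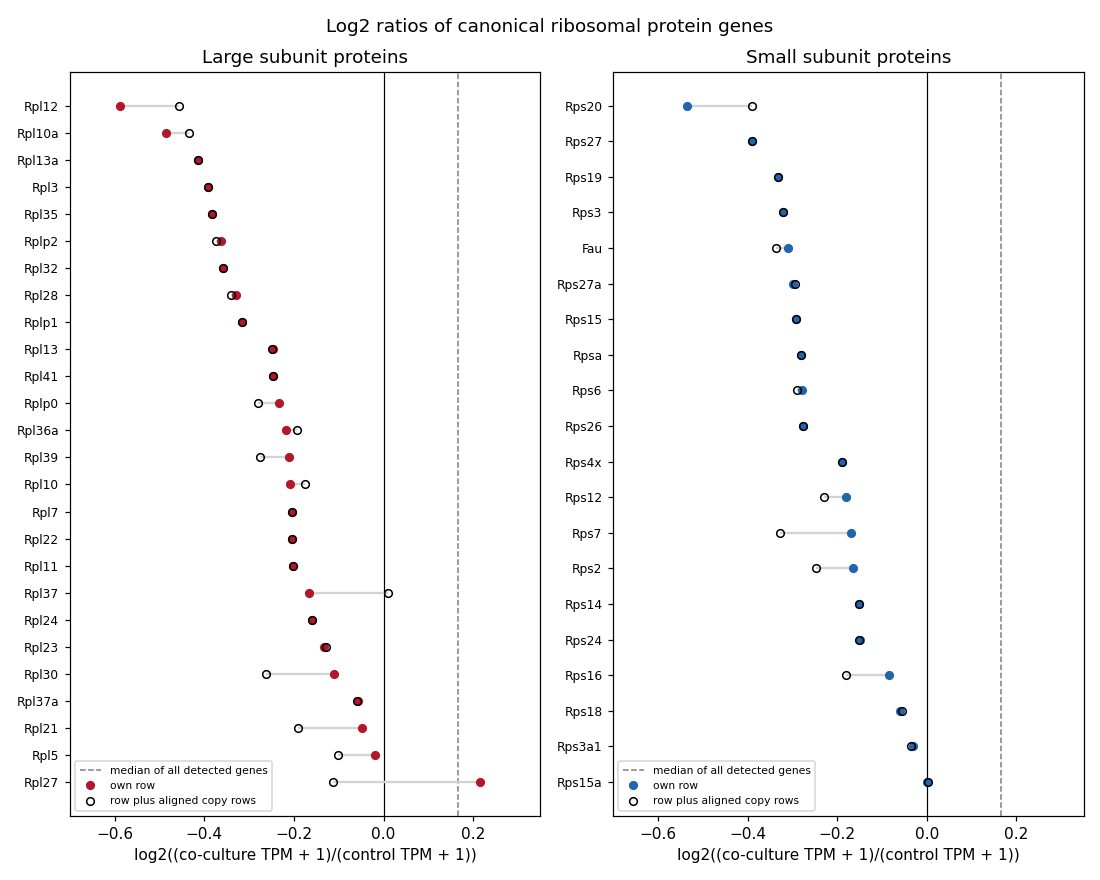
Log2 ratios of co-culture over control TPM (horizontal axis) for the canonical genes named in the text, with the large subunit on the left and the small subunit on the right. Filled points are the gene's own row and open points the sum of that row with its aligned copy rows; of the filled points only Rpl27 and Rps15a lie above 0, and the dashed line marks the median of all detected genes at 0.17.

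Among the large-subunit genes the lowest ratio was that of Rpl12, a protein at the base of the stalk that receives translation factors. Rpl12 (ENSMUSG00000038900, chromosome 2 from 32961559 to 32965345) had 140 TPM in co-culture and 211 TPM in the control, a log2 ratio of -0.59. Rpl10a, the protein of the mobile L1 stalk through which spent tRNA leaves, had 1813 TPM in co-culture and 2538 TPM in the control (log2 ratio -0.49). Rpl13a, also known from the GAIT complex that silences translation in human monocytes, had 4418 TPM in co-culture and 5886 TPM in the control (log2 ratio -0.41). Together with Rps20 these were the 4 canonical genes with ratios below -0.40. Rpl3, which reaches towards the peptidyl transferase centre, had 663 TPM in co-culture and 871 TPM in the control. Rpl35, beside the exit tunnel of the nascent chain, had 1158 TPM in co-culture and 1511 TPM in the control. Rpl32, a structural protein of the large subunit, had a log2 ratio of -0.36.

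All 3 proteins of the P stalk, which recruits the translational GTPases, had lower values, as did nearly all genes of the large subunit. The count therefore does not set the stalk apart from that subunit. Rplp0, which anchors the stalk, had 3225 TPM in co-culture and 3794 TPM in the control. Rplp1 and Rplp2, which form its flexible arms, had log2 ratios of -0.32 and -0.36, and Rplp2 had 1548 TPM in co-culture and 1992 TPM in the control. The 5S RNP partners, which bind and inhibit Mdm2 when ribosome assembly is disturbed, differed less. Rpl11 had 1543 TPM in co-culture and 1776 TPM in the control (log2 ratio -0.20). Rpl5 had 32.6 TPM in co-culture and 33.1 TPM in the control on its own row (log2 ratio -0.02), and with its copies 1542 TPM in co-culture and 1655 TPM in the control (log2 ratio -0.10).

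On the genes' own rows the highest ratio of the large subunit was that of Rpl27, the only gene of that subunit with a higher value in co-culture, a direction that turned with its copies included (log2 ratio -0.11). Rpl27 (ENSMUSG00000063316, chromosome 11 from 101442298 to 101445529) had 241 TPM in co-culture and 207 TPM in the control, a log2 ratio of 0.22 (-0.0025 under TMM scaling). Rpl21 had 317 TPM in co-culture and 328 TPM in the control (log2 ratio -0.05). Rpl37a had 1637 TPM in co-culture and 1703 TPM in the control, and Rpl30 had 669 TPM in co-culture and 722 TPM in the control. Rpl23, Rpl24 and Rpl37 had log2 ratios of -0.13, -0.16 and -0.17.

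In the small subunit Rps20, a protein of the head, had the lowest ratio. Rps20 (ENSMUSG00000028234, chromosome 4 from 3831334 to 3835665) had 309 TPM in co-culture and 449 TPM in the control, a log2 ratio of -0.54. Rps27, a zinc-finger protein and the most abundant small-subunit gene on its own row (Rps2 was higher with copies included), had a ratio of -0.39. Rps19, a gene mutated in human Diamond-Blackfan anaemia, had 891 TPM in co-culture and 1122 TPM in the control. Rps3, at the entry of the mRNA channel, had 1267 TPM in co-culture and 1583 TPM in the control.

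Genes of proteins made as fusions, and that of the best-known phosphorylated protein, lay near the median. Fau, which encodes Rps30 fused to a ubiquitin-like protein, had 370 TPM in co-culture and 459 TPM in the control (log2 ratio -0.31). Rps27a, made as a fusion with ubiquitin, had 1839 TPM in co-culture and 2263 TPM in the control (log2 ratio -0.30). Rps6, the substrate of the S6 kinases, had 2603 TPM in co-culture and 3157 TPM in the control (log2 ratio -0.28). Rack1, a scaffold protein on the small-subunit head that has no Rps symbol and was no member, had 2265 TPM in co-culture and 2633 TPM in the control (log2 ratio -0.22).

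At the upper end of the small subunit Rps15a (chromosome 7 from 118104372 to 118116188) had 2672 TPM in co-culture and 2670 TPM in the control, a log2 ratio of 0.00 that ran from -0.22 to 0.03 over the other scalings. Rps3a1 had 1898 TPM in co-culture and 1938 TPM in the control (log2 ratio -0.03). Rps18 and Rps16, both of the head, had ratios of -0.06 and -0.08. Rps24 (3764 TPM in co-culture and 4177 TPM in the control), Rps14 (2065 TPM in co-culture and 2293 TPM in the control), Rps2 and Rps7 lay between -0.15 and -0.17. These ratios are those of the own rows. With pseudogene copies included Rps16, Rps2 and Rps7 had lower ratios, of -0.18, -0.25 and -0.33. The 4 genes on the X chromosome, Rpl10, Rpl36a, Rpl39 and Rps4x, had log2 ratios between -0.22 and -0.19.

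Many ribosomal protein mRNAs were divided in the table between the gene and its pseudogene copies. A search of expressed rows with pseudogene or retrogene annotation or symbols against the members' transcripts found 132 that aligned at 90% identity or more over at least 50% of their length, 21 of them at 100% identity. These copy rows belonged to 57 of the 78 canonical genes and, for 1 row, to the paralog Rpl36al. Together they held 6.30% of TPM in co-culture and 7.46% in the control. For 23 canonical genes most of the pooled TPM in the control lay in copies. Reads that fit both places can be assigned to either, so the value of a single row is uncertain for these genes.

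**Figure D3:**
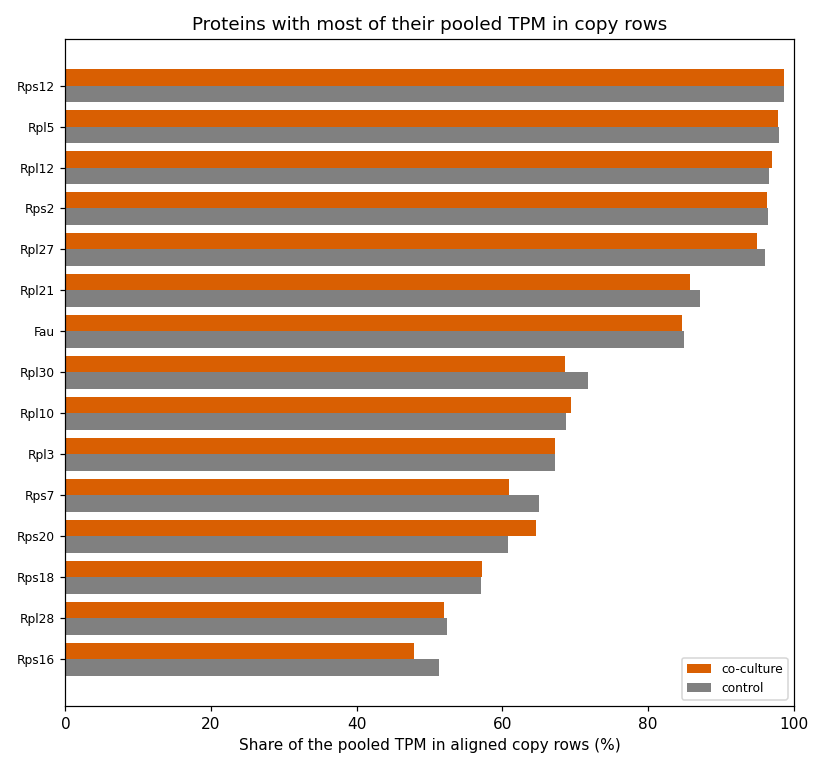
Share of the pooled TPM (the gene's own row plus its aligned copy rows) that lay in the copy rows, in percent, with co-culture above control, for 15 of the 23 canonical genes with more than 50% in copies in the control, those named in the text. The shares in the 2 libraries are close for every gene shown, the highest being those of Rps12 at 98.6% in both.

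Rps12 is the clearest case, with 76.3 TPM in co-culture and 86.6 TPM in the control on its own row, the lowest level of any small-subunit gene. Its copy Rps12-ps3, annotated as protein-coding, had 5290 TPM in co-culture and 6205 TPM in the control. Rps2 had 274 TPM in co-culture and 307 TPM in the control, and its copy Rps2-ps10 had 6840 TPM in co-culture and 8128 TPM in the control. Rpl12 had a copy, Gm10275, with 4444 TPM in co-culture and 6081 TPM in the control. Pooled with their copies these genes ranked with the abundant ones, at 5420 TPM in co-culture and 6356 TPM in the control for Rps12 and at 7325 TPM in co-culture and 8695 TPM in the control for Rps2.

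The low value of Rpl5 came with an abundant copy too. Its copy Gm15500 on chromosome 7 had 1509 TPM in co-culture and 1622 TPM in the control, and 98.0% of the pooled TPM in the control lay there. The coding sequence of Rpl5 on chromosome 5, of 891 bases, is identical to the aligned part of the Gm15500 transcript. The opening 60 bases of this stretch, from the GENCODE M21 transcripts and given 5′ to 3′, are shown because reads that lie within it match both places:
Rpl5: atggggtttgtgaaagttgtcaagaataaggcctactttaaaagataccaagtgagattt
Gm15500: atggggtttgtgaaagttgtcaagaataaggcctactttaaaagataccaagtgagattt

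Rpl3 on chromosome 15 and its copy Rpl3-ps1 on the X chromosome differ at 2 of 1209 aligned bases. Coding bases 27 to 86 of Rpl3 and the matching stretch of the copy hold 1 of these differences, printed in capitals:
Rpl3: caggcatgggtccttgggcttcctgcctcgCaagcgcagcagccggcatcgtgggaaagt
Rpl3-ps1: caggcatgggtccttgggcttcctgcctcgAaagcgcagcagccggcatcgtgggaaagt

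The copy of Rpl3 had 1348 TPM in co-culture and 1766 TPM in the control, and its log2 ratio of -0.39 equalled that of Rpl3 itself.

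Pooling each gene with its copies narrowed the spread of the ratios and left the direction as it was for 76 of 78 genes. The standard deviation over the canonical genes was 0.10 when pooled and 0.12 on their own rows, and the median was -0.26 when pooled and -0.25 on their own rows. Rpl27 had the lower value in co-culture when pooled, at 4815 TPM in co-culture and 5204 TPM in the control (log2 ratio -0.11), and its copy Rpl27-ps3 alone had 4575 TPM in co-culture and 4997 TPM in the control. Pooled ratios of Rpl12 and Rps20 were -0.46 and -0.39, nearer to the others than on their own rows. Rps7, Rpl30 and Rpl21 had pooled ratios of -0.33, -0.26 and -0.19. Rpl37 shifted the other way when pooled, to 0.01, and its copy Rpl37rt had 507 TPM in co-culture and 352 TPM in the control. The 21 canonical genes with no copy row all had lower values, with a median of -0.28 and a standard deviation of 0.07.

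The value of Rpl13 is uncertain for another reason. Rpl13 had 3484 TPM in co-culture and 4136 TPM in the control (log2 ratio -0.25). The gene Gm20388 overlaps it on the same strand and had 4631 TPM in co-culture and 3448 TPM in the control. Their sum was 8115 TPM in co-culture and 7585 TPM in the control, a log2 ratio of 0.10, so the direction at this locus depends on how reads were divided. Rpl28 overlaps Ube2s on the opposite strand (513 TPM in co-culture and 378 TPM in the control), and whether reads were assigned by strand is not stated in the labels.

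The paralogs did not share one direction. Rpl22l1 (ENSMUSG00000039221, chromosome 3 from 28805436 to 28807424), a paralog that can replace Rpl22 and that Rpl22 protein is known to repress in mouse, had 59.2 TPM in co-culture and 123 TPM in the control, a log2 ratio of -1.05. Its parent Rpl22 had 1347 TPM in co-culture and 1552 TPM in the control (log2 ratio -0.20). The level of Rpl22l1 was thus 4.39% of that of Rpl22 in co-culture and 7.95% in the control. Rpl22l1 had no aligned copy row. It was the only member past the 2-fold rule, and with a pseudocount of 5 (ratio just above -1) or with lowess trends on length and GC removed (-0.95) it was not past it.

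Unlike Rpl5 and its copy, these paralogs can be told apart by reads, since their coding sequences share 70.2% of 366 aligned bases. Coding bases 175 to 234 of Rpl22, on chromosome 4, and 157 to 216 of Rpl22l1, on chromosome 3, differ at 24 of 60 positions, printed in capitals:
Rpl22: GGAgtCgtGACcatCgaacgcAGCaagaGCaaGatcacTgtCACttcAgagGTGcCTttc
Rpl22l1: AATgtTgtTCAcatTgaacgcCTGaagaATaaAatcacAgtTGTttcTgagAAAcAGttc

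**Figure D4:**
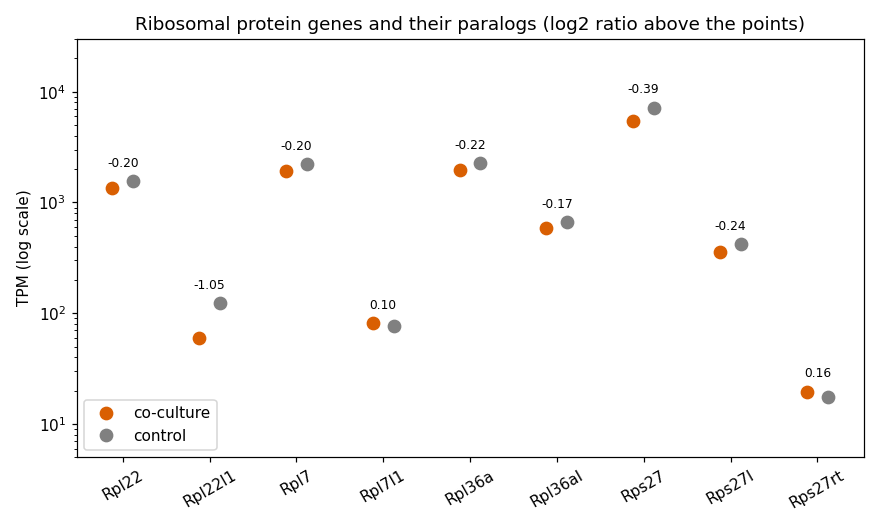
TPM on a log scale (vertical axis) of 4 ribosomal protein genes and the detected paralogs beside each, with co-culture left of control and the log2 ratio printed above each pair of points. Rpl22l1 has the widest gap between the libraries, at 59.2 TPM in co-culture and 123 TPM in the control.

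Rpl36al, an autosomal paralog of the X-linked Rpl36a, had 588 TPM in co-culture and 660 TPM in the control (log2 ratio -0.17), near the -0.22 of its parent. Rps27l had 356 TPM in co-culture and 422 TPM in the control (log2 ratio -0.24), while Rps27 had -0.39. Rpl7l1, a Rpl7-like protein, had 81.6 TPM in co-culture and 75.9 TPM in the control (log2 ratio 0.10, and -0.11 under TMM scaling). Rps27rt, a further copy of Rps27, had 19.6 TPM in co-culture and 17.5 TPM in the control (log2 ratio 0.16, and -0.052 under TMM scaling). Rps19bp1 had 40.6 TPM in co-culture and 48.5 TPM in the control. The 3 undetected members were Rpl10l and Rpl39l, listed at 0 in both libraries, and Rpl3l, listed at 0 in co-culture and at 0.17 TPM in the control.

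Proteins of the mitochondrial ribosome, a separate machine encoded by nuclear genes, were more scattered. All 78 genes of that set were detected, and 56 had lower values in co-culture (48 to 65 under other scalings). The share over all detected genes was 35.4% (33.4% to 53.0% under the other scalings). The mitochondrial set had a median of -0.12 (-0.09 to -0.33 under other scalings), with a standard deviation of 0.38. Mrpl18 had 89.1 TPM in co-culture and 33.2 TPM in the control, and Mrps21 had 210 TPM in co-culture and 84.4 TPM in the control, the only 2 past the 2-fold rule. At the other end Mrps18b had 103 TPM in co-culture and 183 TPM in the control, and Mrpl47 had 14.4 TPM in co-culture and 26.4 TPM in the control.

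**Figure D5:**
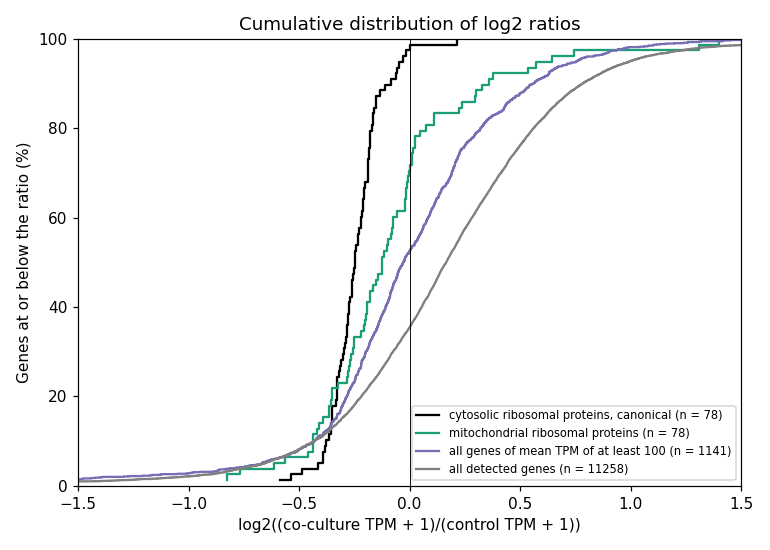
Cumulative share of genes (vertical axis, in percent) at or below each log2 ratio of co-culture over control TPM (horizontal axis), for the 78 canonical cytosolic ribosomal protein genes, the 78 mitochondrial ribosomal protein genes, all genes whose mean was 100 TPM or more and all detected genes. The cytosolic curve is steep and lies left of 0 for 76 of 78 genes, while the other curves are broad.

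Other translation genes whose mRNAs are known as TOP mRNAs or are commonly grouped with them were also mostly lower. Of 15 such genes, all detected, 11 had lower values in co-culture (11 to 14 under other scalings), with a median of -0.22 (-0.33 with centring on the median ratio and -0.44 under TMM scaling) and none 2-fold different. Among all detected genes 35.4% had lower values (33.4% to 53.0% under the other scalings). Without rescaling the share was 52.5% among those of 100 TPM or more, and 47.7% with members and their pseudogene copies left out. Eif3f, a subunit of initiation factor eIF3, had 159 TPM in co-culture and 215 TPM in the control. The elongation factor genes Eef1b2, Eef2 and Eef1g had log2 ratios of -0.41, -0.36 and -0.35, with Eef2 at 1929 TPM in co-culture and 2474 TPM in the control. Nap1l1, Pabpc1, Hnrnpa1 and Npm1 had higher values in co-culture without rescaling, with log2 ratios of 0.23, 0.16, 0.06 and 0.06.

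Regulators of TOP mRNA translation did not share one direction. Of 9 detected genes, 3 had lower values and 6 higher under every scaling tried. That share of lower values was near the 35.4% of all detected genes without rescaling, which became 53.0% under TMM scaling. The median of the 9 genes was 0.28 (0.078 under TMM scaling), against 0.17 over all detected genes (-0.03 under TMM scaling). Eif4ebp1 (4E-BP1), a repressor of cap-dependent translation that mTORC1 inactivates, had 130 TPM in co-culture and 284 TPM in the control (log2 ratio -1.12). Its relative Eif4ebp2 had 27.0 TPM in co-culture and 12.2 TPM in the control (log2 ratio 1.09). Mtor, the kinase itself, had a log2 ratio of -0.49, and Larp4, an RNA-binding protein that protects poly(A) tails, had 8.85 TPM in co-culture and 5.86 TPM in the control.

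Dedicated chaperones and assembly factors of single ribosomal proteins were lower for 6 of 7 genes (6 to 7 under other scalings). Over all detected genes 35.4% were lower (33.4% to 53.0% under the other scalings). The 7 genes had a median of -0.34 (-0.55 under TMM scaling). Pdcd2, a chaperone of Rps2, was past the 2-fold rule, with 37.8 TPM in co-culture and 103 TPM in the control (log2 ratio -1.42). Tsr2, the chaperone of Rps26, had 21.2 TPM in co-culture and 38.2 TPM in the control. Rps26 itself had 2403 TPM in co-culture and 2911 TPM in the control. Ltv1, known in yeast to assist the placing of Rps3 and Rps20, had 12.4 TPM in co-culture and 19.2 TPM in the control. Pdcd2l had a log2 ratio of -0.34.

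Promoter sequence was examined because the members had similar ratios. The RefSeq table of start sites (GRCm38.p6) held 58 of the 78 canonical genes in 68 windows of 300 bases, from 250 bases before to 50 after each start. The ETS-family core CCGGAA, on either strand, was present in 48.5% of these windows and in 14.9% of all 32851 windows. The GC box GGGCGG, on either strand, was present in 61.8% and in 35.7%. CTTTCC on the transcript strand, a pyrimidine stretch common at TOP starts, was present in 38.2% and in 14.1%. TATAAA, on either strand, was present in 8.82% and in 13.6%. A run of at least 8 bases that were all C or T lay within the 30 bases around the start (20 before to 10 after) in 41.2% of member windows and in 12.6% of all windows. These motifs were not screened for overlap with each other, and a match describes letters only.

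The 30-base windows of the matched genes at both ends of the ratio order, and of Rpl22l1, show that pyrimidine runs (longest run in capitals) occur at either end. Rpl12, Rpl10a and Rpl13a had the lowest ratios of the matched canonical genes, and Rpl5, Rps15a and Rpl27 the highest, on the genes' own rows. With copies included Rpl5 and Rpl27 had ratios of -0.10 and -0.11, still above the median of -0.26 over the canonical genes pooled in this way. Each is given 5′ to 3′ on the strand of the gene, on GRCm38.p6, and the earlier entry of the table was used for Rpl10a, which has 2 starts:
Rpl12 (chr2:32961692-32961721, plus strand): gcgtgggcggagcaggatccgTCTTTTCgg
Rpl10a (chr17:28328451-28328480, plus strand): gcgtggtggcgCCCCCCCagcggccgcaaa
Rpl13a (chr7:45128736-45128765, minus strand): gataagaaaccctgcgacaagaCCTCCTCC
Rpl5 (chr5:107900508-107900537, plus strand): CTCTTTCTCacgtcgcttgcgtgctggtgg
Rps15a (chr7:118116138-118116167, minus strand): gcccaCTCTCTTTCTgccatcttccctcgc
Rpl27 (chr11:101442225-101442254, plus strand): ccggaacgctctgTTCCTgtctgctgctcg
Rpl22l1 (chr3:28805488-28805517, plus strand): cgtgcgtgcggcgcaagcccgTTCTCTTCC

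The longest runs in these windows were 7, 7, 8, 9, 10, 5 and 9 bases in the order given. Rpl22l1, with the largest difference of any member, and Rps15a, with a log2 ratio of 0.00, both hold runs of 9 or more bases. The run of Rps15a lies before the annotated start and that of Rpl22l1 after it. Whether any of these runs is a TOP tract was not tested.

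Genes with long coding sequences had higher ratios over the whole table. Other protein-coding genes with a coding length above 1200 bases had a median log2 ratio of 0.25, and those of up to 1200 bases had 0.07, with 42.9% lower in co-culture. Within that class the genes of up to 600 bases had 0.10, with 39.7% lower, so the shortest genes were not the lowest. The canonical ribosomal protein genes had a median coding length of 462 bases. With lowess trends on length and GC of the transcripts removed, 65 of 84 members had lower values and their median was -0.0819, with the median of all genes held at 0.17. The part of length, GC content or library composition in the lower values was not tested.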

How the data were processed

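The authors deposited 1 table of TPM values with 1 column per library. HISAT2 2.1.0 and RSEM 1.2.31 stand in the submitters' processing notes, with the build GRCm38.p5 and no roles. Other upstream details (annotation, strandedness, filters) were not given in the sources used here. Symbols, biotypes and positions came from GENCODE M21 (GRCm38, 1-based), which held 51719 of 51912 Ensembl identifiers. The 884 MSTRG loci entered totals only.

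Log2 ratios used a pseudocount of 1, which understates changes of low genes. Copy rows were found with blastn 2.17.0 (E-value limit 1e-10) on GENCODE transcripts, best match by bit score, a step added after the data were seen. The ratio rule was run on simulated data with changes well past 2-fold, small noise and calls made without a pseudocount. That run says nothing about shifts as small as those of most members. The members and lists were chosen with earlier results of these data known. Named genes were the 8 lowest and 8 highest ratios and the 3 highest and 3 lowest levels per subunit, members past 2-fold, paralogs, P stalk, 5S RNP, Rack1 and up to 4 genes per other list. Others were chosen after their values were seen. A few genes that the rule names are not reported here, which applies to the figures too.

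The alternatives were pseudocounts of 0.1 and 5, no filter, a minimum mean of 10 TPM, centring on the median ratio above that minimum, TMM without weights (trims of 30% and 5%), rescaling without the members or without mitochondrially encoded and the 20 most abundant genes, canonical proteins only, 2 ribosomal genes outside the rule added, copies pooled by symbol, means, and lowess trends (span 0.3) removed. Alternatives added later were aligned copies pooled, Ensembl genes alone in the total, and members without abundant genes or genes with copies. A ratio counted as moved beyond 0.1 and a count beyond 1.5 times.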

Additional observations from a re-analysis of the deposited data

How the results depend on the processing

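No paired analysis was possible because each group has 1 library. The count of members lower in co-culture was 80 and stayed within 1.5 times under every alternative, from 65 with length and GC trends removed to 84 with the TMM factor. The median of -0.25 became -0.36 after centring on the median ratio, -0.46 after TMM scaling and -0.0819 once length and GC trends were removed, and within 0.1 otherwise. The median of all genes, 0.17, was 0.06 after centring and -0.03 after TMM scaling. Relative to all genes the members were then at -0.42 and -0.43, against -0.41 without rescaling and -0.25 with the trends removed. The count of members 2-fold lower was 0 with a pseudocount of 5, for canonical proteins only and with the trends removed, since Rpl22l1 was then short of the threshold or not in the set. The cause of the shift with the trends was not tested. The difference between subunits and the share of TPM moved by less than 0.1. Depth is unknown, and 1 library per group leaves all differences without replicate error.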
